A study of Mus musculus with 6 samples.

Results

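The proteasome genes of 4T1 cells were taken from a count table of 31017 gene symbols. The members are the rows whose symbol is Psm followed by a letter from a to g and a number, together with Pomp, Adrm1, Sem1 and Nfe2l1, which gave 52 genes. Of these, 50 passed the filter on low counts and were tested. The other 2, Psma8 and Psmb11, had 0 counts in all 6 libraries. These are the core subunits associated with testis and with thymic cortical epithelium, respectively. The libraries hold polyadenylated RNA of 4T1, a mouse mammary carcinoma line, in 2 groups of 3. The control group received Cas9 with control guides by nucleofection, and the group labelled FGFR2 KO received Cas9 with guides specific for that receptor gene. Both groups were grown in droplets of collagen I gel and released with collagenase before RNA extraction. The labels do not say whether the edited cells were a pool or a clone, or which of the 2 listed collagen concentrations, 1.2 or 2.4 mg/ml, a library came from.

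The proteasome is the protease of the cytosol and nucleus that degrades proteins marked with ubiquitin. Its core particle is a stack of rings of alpha and beta subunits, with the active sites on 3 of the beta subunits. The regulatory particle caps the core: its base holds a ring of ATPases that unfold the substrate and thread it inward, and its lid removes the ubiquitin chain. The alternative beta subunits, Psmb8, Psmb9 and Psmb10, replace the constitutive active subunits Psmb5, Psmb6 and Psmb7 in immunoproteasomes, which are known for producing peptides for MHC class I presentation and are induced by interferon gamma. Subunit genes are co-regulated in many cells, and the membrane-tethered transcription factor NRF1, the product of Nfe2l1, raises them when proteasome activity is short.

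The upstream sequences of 2 catalytic pairs are shown first, because the constitutive and the immunoproteasome subunit of each pair went in opposite directions. Each line gives the 150 bases before the RefSeq start (GRCm38.p6, which is mm10), 5′ to 3′ on the gene's strand: Psmb5 at chr14:54617996-54618145 (minus strand), Psmb6 at chr11:70525207-70525356 (plus strand), Psmb8 at chr17:34198045-34198194 (plus strand) and Psmb9 at chr17:34187331-34187480 (minus strand). Capitals mark matches to 6 motifs, searched on both strands of each window of 250 bases before to 50 bases after the start.
Psmb5: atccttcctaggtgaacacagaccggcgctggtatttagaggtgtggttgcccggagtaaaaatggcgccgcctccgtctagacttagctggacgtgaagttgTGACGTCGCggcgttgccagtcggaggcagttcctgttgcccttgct
Psmb6: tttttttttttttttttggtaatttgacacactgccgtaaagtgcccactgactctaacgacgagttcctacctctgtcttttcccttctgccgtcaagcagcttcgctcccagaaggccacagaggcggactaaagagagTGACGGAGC
Psmb8: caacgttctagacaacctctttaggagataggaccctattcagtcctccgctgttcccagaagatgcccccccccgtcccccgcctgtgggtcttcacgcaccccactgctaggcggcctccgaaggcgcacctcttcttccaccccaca
Psmb9: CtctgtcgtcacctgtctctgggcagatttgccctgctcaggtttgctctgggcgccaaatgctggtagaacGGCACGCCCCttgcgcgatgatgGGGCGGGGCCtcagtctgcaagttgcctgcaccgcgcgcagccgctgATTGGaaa

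The marked stretches of Psmb5 and Psmb6 match TGACNNNGC, the core of the antioxidant response element, to which NRF1 and its relative NRF2 bind. The Psmb5 stretch also overlaps TGACGT, the core of the cyclic AMP response element. The last marked stretch of Psmb9 is the CCAAT box read on the opposite strand, and its others match an NF-kB site pattern (GGG, any 5 bases, CC) on either strand, the first of them only in part because it begins upstream of the bases shown. The Psmb8 stretch has no marked match. A match is a description of letters and does not show that a factor binds there.

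Windows existed for 44 of the 52 genes. TGACNNNGC occurred in 8 of them (18.2%), against 17.1% of the 9403 tested genes with a window. Of the 44 genes, 35 were raised and only 5 lowered, so a split of matches by direction says little, and a link was not tested. All 8 of the genes with this core were among the 35 raised genes with a window (22.9% of these), and 0 of the 5 lowered genes had it. Those printed next, each with up to 16 bases of flank, sit on 4 further genes: Adrm1 (chr2:180171410-180171450, plus strand), Psmc6 (chr14:45329581-45329621, plus strand), Psmd12 (chr11:107479278-107479305, plus strand) and Psmd9 (chr5:123228143-123228183, plus strand). In Psmc6 and Psmd12 the core reads on the opposite strand.
Adrm1: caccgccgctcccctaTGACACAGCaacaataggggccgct
Psmc6: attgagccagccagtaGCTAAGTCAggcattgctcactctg
Psmd12: tctGCTGTGTCAcatttgcccccctcag
Psmd9: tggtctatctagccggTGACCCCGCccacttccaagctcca

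The other motifs differed in how their share compared with tested genes at large. The ETS core CCGGAAG was in 36.4% of members with a window and in 21.0% of tested genes. The CCAAT box was in 36.4% of members and 43.4% of tested genes, and TGACGT in 11.4% and 13.5%. The interferon-stimulated response element (GAAA, any 2 bases, GAAA) was in 5 members (11.4%, against 3.67% of tested genes), none of them an immunoproteasome gene. The NF-kB pattern was in 24 members (54.5%), against 72.9% of tested genes and 53.5% of all genes with a window.

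The constitutive subunits rose together and by small amounts in the KO libraries. Of 33 tested core, base and lid genes, 33 rose and 0 fell in the KO libraries (edgeR quasi-likelihood test, adjusted p below 0.05; 0 fell at an unadjusted p below 0.05 as well). The rises ran from 1.07-fold to 1.39-fold with a median of 1.19-fold. Over the 50 tested members 41 rose, 5 fell and 4 did not pass. Across all 12158 tested genes 54.6% passed, 27.1% rising and 27.5% falling. Groups did not overlap in 38 members with KO above control and in 5 with KO below it, against 29.5% and 30% of all tested genes. The median log2 fold change was 0.18 for the members, 0.25 for the core, base and lid genes, and -0.01 for all tested genes. A change of 1.5-fold in either direction was reached by 0 of the 50 members and by 1919 tested genes. In bulk RNA, fewer cells of a type and less RNA per cell cannot be told apart, and with these scaled counts a rise is relative to the rest of the polyadenylated RNA.

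**Figure D1:**
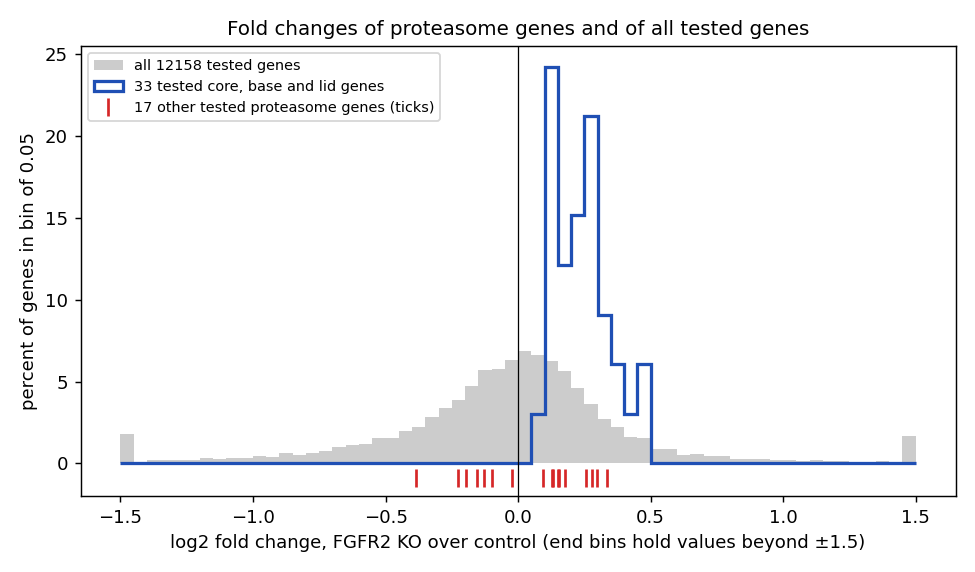
Share of genes (vertical axis, percent per bin of 0.05) by log2 fold change of KO over control (horizontal axis) for all 12158 tested genes in grey and the 33 tested core, base and lid genes as a blue outline, with red ticks for the 17 other tested proteasome genes. The blue outline lies wholly to the right of 0, within the middle of the grey distribution.

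Fgfr2 itself, the gene named by the guides, averaged 99.7 ± 5.82 CPM in control libraries against 92.6 ± 10.4 CPM in KO libraries (SD, n = 3) and did not pass the test (edgeR adjusted p = 0.113), so its total transcript does not check the labels. CPM are counts scaled to a common library total, adjusted by the trimmed mean of M values (TMM). Libraries held 15531790 to 20447719 counts, and the proteasome genes were well covered, with at least 118 counts for a tested member in any library. By mean CPM, 38 of the 50 lay above the 75th percentile of tested genes. All 6 epithelial markers (Epcam, Krt8, Krt18, Krt7, Cdh1 and Cldn7) were expressed. They summed to 4812 to 4924 CPM in control and 4017 to 4081 CPM in KO libraries. Epcam, Krt8, Krt18 and Krt7 fell, Krt18 the most (1402 to 918 CPM). Cdh1 rose (327 to 390 CPM, edgeR adjusted p = 1.48e-07), and Cldn7 did not pass (edgeR adjusted p = 0.581). Endothelial markers summed to at most 0.588 CPM in any library. Fibroblast markers summed to 36.3 to 38.2 CPM in control and 39.7 to 45.4 CPM in KO libraries, mostly Pdgfra, which did not pass (36.4 to 39.4 CPM, edgeR adjusted p = 0.143). Among the other 5, Col1a1 rose 2.76-fold from a low level (0.437 to 1.24 CPM, edgeR adjusted p = 0.00338). Dcn (0.0363 to 0.564 CPM) and Pdgfrb (0.0430 to 0.442 CPM) were too low to be tested and had every KO library above every control library. Col1a2 averaged 0.0182 and 0.0513 CPM, and Lum had 0 counts. Whether these markers bear on the proteasome genes was not tested.

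The alpha subunits form the outer rings of the core and its gate. All 7 tested alpha genes rose, between 1.07-fold and 1.25-fold. Psma2 had the smallest adjusted p among them. Its levels were 125, 136 and 126 CPM in control replicates 1 to 3 and 160, 167 and 159 CPM in KO replicates 1 to 3, with no overlap. The log2 fold change was 0.33 (SE 0.0426, edgeR adjusted p = 3.6e-08). Psma7, Psma4 and Psma3 followed at 0.29, 0.27 and 0.25. Psma1 rose by 0.18, Psma6 by 0.13 and Psma5 by 0.09 (edgeR adjusted p = 0.043), and Psma5 was the only alpha gene whose groups overlapped, with 216 to 228 CPM in control and 227 to 246 CPM in KO libraries. Psma5 lost its call in 8 of 14 alternative analyses, among them leaving out any single library other than KO replicate 3 (edgeR adjusted p from 0.0503 to 0.181), and Psma6 lost its call without control replicate 3 (0.0616). These 2 smallest rises belong to the alpha genes of the highest level per length. Psma5 and Psma6 stood at 169 and 163 CPM per kilobase of exon (RPKM) in control libraries, the other 5 at 34.7 to 67.8 RPKM. Their annotated exons are also the shortest, 1321 and 1234 bases against 2370 to 3894 for the other 5. In CPM the order differs: Psma7 stood above Psma6 in control libraries (208 and 201 CPM on average) and rose more.

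The constitutive beta subunits form the inner rings. All 7 rose, but 6 of them by no more than 1.16-fold. Psmb3, a beta subunit without an active site, was the exception and the largest rise among all members. It had 132, 138 and 130 CPM in control and 177, 187 and 191 CPM in KO libraries. That is a log2 fold change of 0.47 (standard error 0.0417, 95% interval 0.39 to 0.55, edgeR adjusted p = 4.03e-12), and its interval lies above the intervals of the other 6 beta genes. Among those, Psmb1 and Psmb2 both rose by 0.14 and Psmb4 by 0.12. Psmb2 no longer passed without control replicate 1 (edgeR adjusted p = 0.112) or KO replicate 2 (0.0692).

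The 3 constitutive active subunits rose by 1.09-fold to 1.16-fold, less than the median core, base and lid gene (1.19-fold). Their control libraries spread more than those of the median tested member. The coefficients of variation were 7.60%, 7.48% and 9.40% for Psmb5, Psmb6 and Psmb7, against a median of 2.94%. Among KO libraries only Psmb5 spread more than the median member, with Psmb6 at 2.44% and Psmb7 at 2.12%. Psmb5 carries the chymotrypsin-like activity and is the main target of the drug bortezomib. Its levels were 62.4, 60.2 and 53.8 CPM in control and 58.4, 67.0 and 80 CPM in KO replicates 1 to 3, so the groups overlap, and KO replicate 3 alone lies far above the controls. The log2 fold change was 0.22 (SE 0.0707, edgeR adjusted p = 0.00866). The value was 0.09 without KO replicate 3 (edgeR adjusted p = 0.246) and 0.16 without control replicate 3 (edgeR adjusted p = 0.0845), and DESeq2 did not call it (adjusted p = 0.194). The coefficient of variation of Psmb5 among KO libraries, 15.9%, was the largest of the 50 tested members, whose median was 4.00%.

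Psmb6, which carries the caspase-like activity, had 133, 134 and 117 CPM in control and 140, 143 and 136 CPM in KO libraries, with no overlap but with control replicate 3 apart from the other controls. Its log2 fold change was 0.12 (edgeR adjusted p = 0.0217). Psmb7, which carries the trypsin-like activity, had 197, 210 and 174 CPM in control and 209, 215 and 218 CPM in KO libraries. The lowest KO value lay just below the highest control value, and the log2 fold change was 0.14 (edgeR adjusted p = 0.00883). In all 3 active subunits control replicate 3 was the lowest control library. Without that library Psmb6 and Psmb7 no longer passed, at log2 fold changes of 0.07 each (edgeR adjusted p = 0.240 and 0.171), and Psmb6 also missed the threshold without KO replicate 2 (0.0691).

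The immunoproteasome subunits did not move as a block. Psmb9, the counterpart of Psmb6, had 15, 12.8 and 14.3 CPM in control and 10.3, 11.5 and 10.4 CPM in KO libraries. It fell by 0.39 on the log2 scale (SE 0.108, 95% interval -0.61 to -0.17, edgeR adjusted p = 0.00272), the largest fall of any member. Psmb8, the counterpart of Psmb5, had 63.4, 64.0 and 66.7 CPM in control and 60.1, 59.1 and 58.2 CPM in KO libraries and fell by 0.13 (edgeR adjusted p = 0.0348). The groups did not overlap, yet this call was lost in 8 of 14 alternatives, DESeq2 among them (adjusted p = 0.0698). It was also lost without control replicate 2 or 3 and without KO replicate 2 or 3 (edgeR adjusted p from 0.061 to 0.1247). Psmb10, the counterpart of Psmb7, went the other way, from 46.5, 47.9 and 50.1 CPM to 55.3, 51.1 and 54.3 CPM, a log2 fold change of 0.16 (edgeR adjusted p = 0.0209). That call was lost in 5 of 14 alternatives, including without control replicate 1 or 2 and without KO replicate 1 or 3 (edgeR adjusted p from 0.057 to 0.0967). Its log2 fold change was close to that of the constitutive Psmb7. The class therefore had 2 falls and 1 rise, and the 95% intervals of both falling genes lie below those of all 33 tested core, base and lid genes.

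**Figure D2:**
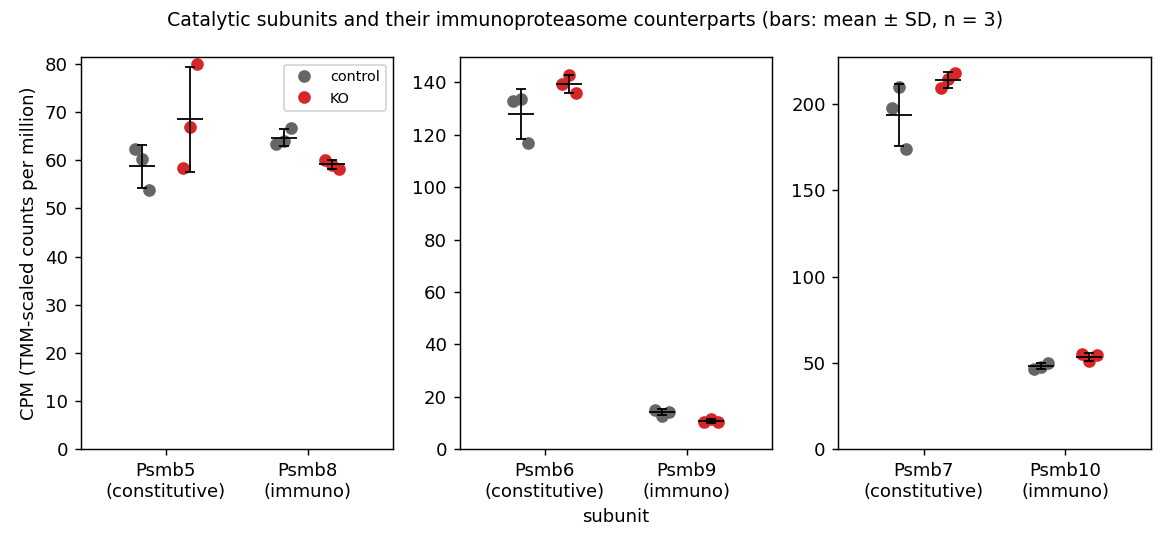
CPM (vertical axis, from 0, a separate scale per panel) of the 3 constitutive active subunits and their immunoproteasome counterparts in each control (grey) and KO (red) library, with mean and SD, n = 3. Psmb8 and Psmb9 lie lower in KO libraries than in control libraries, Psmb10 higher, and KO replicate 3 of Psmb5 stands apart, well above its controls.

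Within each pair, the share of counts held by the immunoproteasome subunit describes which form dominates the transcripts. Psmb9 made up 10.1%, 8.76% and 10.9% of the Psmb9 and Psmb6 counts in control and 6.85%, 7.47% and 7.08% in KO libraries. These groups did not overlap, and the mean went from 9.95 ± 1.10% to 7.14 ± 0.313% (SD, n = 3). Psmb8 made up 52.4 ± 2.59% of the Psmb8 and Psmb5 counts in control and 46.6 ± 4.31% in KO libraries, with overlap, since KO replicate 1 stood at 50.7% and control replicate 1 at 50.4%. Psmb10 made up 20.01 ± 2.06% and 20.03 ± 0.849% of its pair with Psmb7. Per kilobase of exon the shares were 22.7% in control and 18.9% in KO libraries for Psmb8, 5.35% and 3.78% for Psmb9, and 33.4% in each group for Psmb10. The constitutive transcript was thus the more abundant one per length in each pair and each group. For Psmb8 and Psmb5 this order rests on annotated exon lengths of 3381 and 899 bases, as Psmb8 held the larger part of the counts in every control library.

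Psmb8 and Psmb9 lie close together in the MHC region of chromosome 17, in the order Psmb9, Tap1, Psmb8 and Tap2. Tap1 and Tap2 are the peptide transporter genes, whose products carry proteasome products into the endoplasmic reticulum. Both neighbours were lower too: Tap1 fell by 0.53 (18.8 to 13.0 CPM) and Tap2 by 0.79 (112 to 65.1 CPM). Psmb9 and Tap1 share 212 bases of annotated exon on opposite strands, and since the strand setting of the counting is not given, their reads cannot be fully told apart. The median log2 fold change of all 620 tested genes on chromosome 17 was -0.03. Psmb10 lies on chromosome 8, away from that region.

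Of 17 listed genes of MHC class I peptide loading and its inducers, 5 rose and 7 fell, at a median log2 fold change of -0.04. The shares over all tested genes were 27.1% rising and 27.5% falling. The chaperones Calr and Pdia3 rose by 0.70 and 0.37, whereas Irf1, a transcription factor that induces Psmb8 to Psmb10 and Tap1, fell by 0.52. Nlrc5, the class I transactivator, had a log2 fold change of -0.06 (edgeR adjusted p = 0.532). The 11 leukocyte markers summed to 14.1 to 15.9 CPM in control and 6.15 to 8.74 CPM in KO libraries, and their part in the falls of Psmb8 and Psmb9 was not tested. Cd68 made up most of these sums and fell by 1.19 on the log2 scale (13.7 to 5.97 CPM, edgeR adjusted p = 7.88e-10). Csf1r did not pass (0.921 and 1.22 CPM, edgeR adjusted p = 0.415). The other 9 were too low to be tested: 5 of them, Cd3e, Ms4a1, Adgre1 and Ly6g included, had 0 counts in every library, and Ptprc averaged 0.0215 CPM in control and 0.0357 CPM in KO libraries.

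The base of the regulatory particle rose throughout. All 6 ATPase genes passed, between 1.12-fold and 1.38-fold. Psmc5 had 117, 133 and 125 CPM in control and 175, 174 and 170 CPM in KO libraries, a log2 fold change of 0.47 (standard error 0.044, edgeR adjusted p = 1.78e-11). Psmc4 rose by 0.38, Psmc2 and Psmc3 by 0.29 and 0.28, and Psmc1 and Psmc6 by 0.17 and 0.16. The interval of Psmc5, 0.38 to 0.56, lies above those of Psmc1 (0.10 to 0.24) and Psmc6 (0.08 to 0.24), so rises within this ring were unequal. In all 6, each KO library lay above each control library.

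Of the base subunits that are not ATPases, Psmd1 and Psmd2 are scaffolds, and Psmd4 and Adrm1 are ubiquitin receptors. Psmd1 had 303, 299 and 294 CPM in control and 349, 378 and 344 CPM in KO libraries, a log2 fold change of 0.26 (edgeR adjusted p = 3.13e-07). Adrm1 had 124, 128 and 123 CPM in control and 145, 156 and 158 CPM in KO libraries, a log2 fold change of 0.29 (edgeR adjusted p = 4.06e-07). The other receptor, Psmd4, rose by only 0.11 (edgeR adjusted p = 0.0197), with control libraries between 250 and 252 CPM and KO libraries between 254 and 292 CPM, and lost its call in 6 of 14 alternatives. Those included leaving out any control library (edgeR adjusted p from 0.0527 to 0.0591) or KO replicate 2, the highest KO library, without which its log2 fold change was 0.06 (0.25). Psmd2, the member of the highest CPM in control libraries, rose by 0.14 from 465 ± 11.7 to 513 ± 2.02 CPM (SD, n = 3).

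All 9 lid genes rose without overlap between groups, from 1.12-fold to 1.33-fold. Psmd7 is the inactive partner of the deubiquitinase Psmd14. It had 241, 241 and 229 CPM in control and 293, 303 and 303 CPM in KO libraries, a log2 fold change of 0.34 (standard error 0.0368, edgeR adjusted p = 7.47e-10). Psmd14, which cuts the ubiquitin chain off the substrate, rose by 0.22, and its interval of 0.13 to 0.31 overlaps that of Psmd7. Among the helical scaffold proteins of the lid, Psmd13 rose by 0.41, Psmd8 by 0.36 and Psmd6 by 0.31. Sem1, the smallest lid protein and also a partner of the DNA repair protein BRCA2, had 91.0, 92.0 and 94.9 CPM in control and 103, 105 and 116 CPM in KO libraries, a log2 fold change of 0.23 (edgeR adjusted p = 1.17e-04). Psmd3, Psmd11 and Psmd12 rose by 0.28, 0.25 and 0.16.

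**Figure D3:**
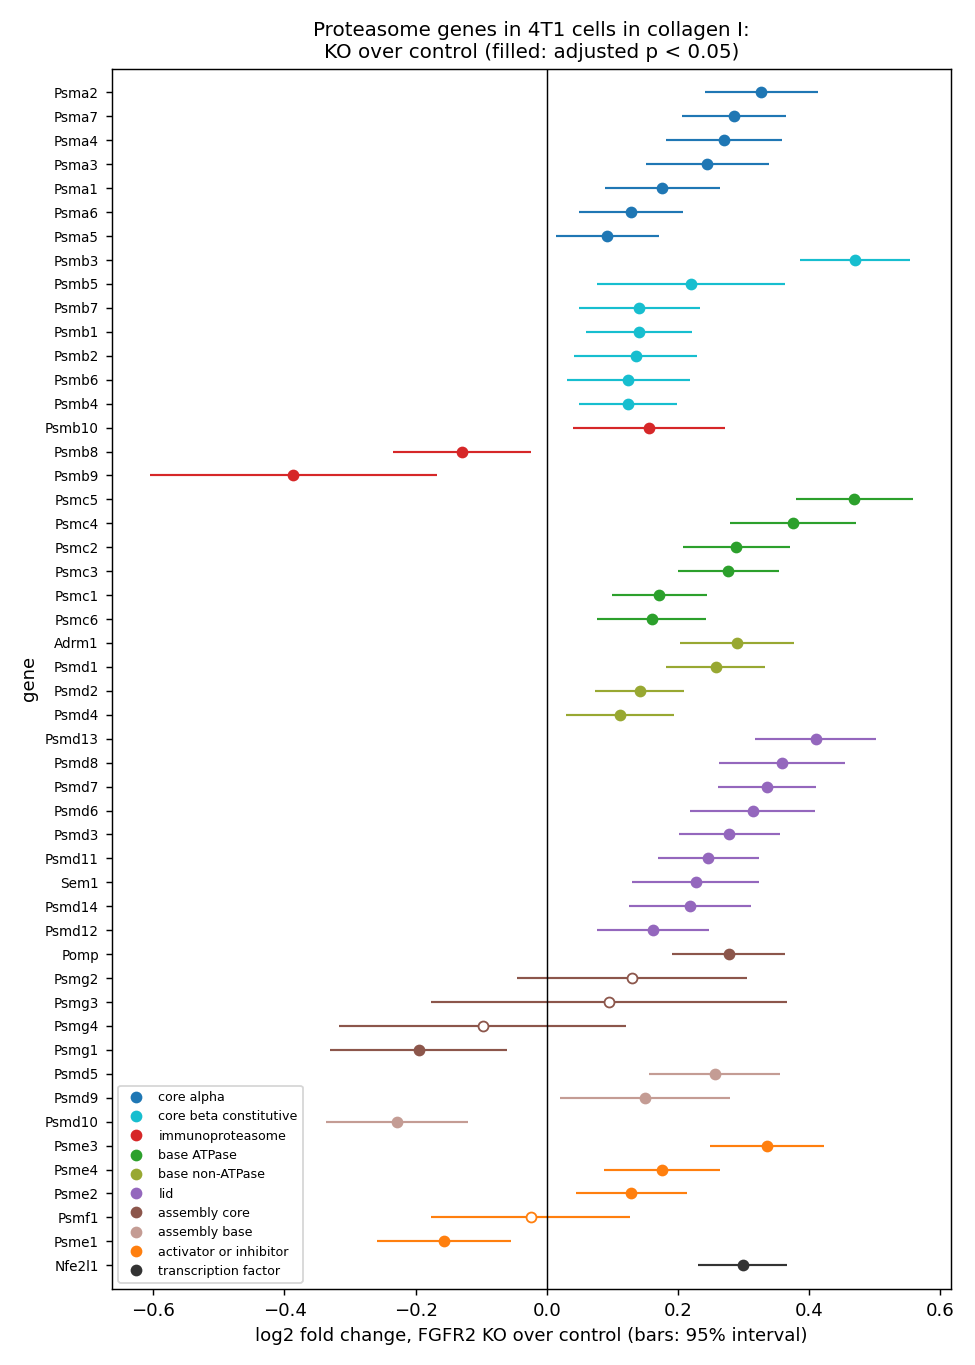
Log2 fold change of KO over control (horizontal axis) with 95% intervals for the 50 tested genes (vertical axis), coloured by class; filled points have an edgeR adjusted p below 0.05 and open points do not. The core, base and lid genes lie to the right of 0, and the 5 genes that fell are Psmb8, Psmb9, Psmg1, Psmd10 and Psme1.

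By class, the median log2 fold change was 0.25 for alpha, 0.14 for constitutive beta, 0.27 for base and 0.28 for lid genes. The ranges overlapped: 0.09 to 0.33 for alpha, 0.12 to 0.47 for beta, 0.11 to 0.47 for base and 0.16 to 0.41 for lid genes. Psmb3 alone sets the top of the beta range. The SD within a class was 0.087 for alpha, 0.126 for beta, 0.112 for base and 0.078 for lid genes. A difference between classes was not tested. Summed over genes, the core particle went from 2204 ± 70.1 to 2527 ± 55.3 CPM and the regulatory particle from 3501 ± 44.0 to 4147 ± 74.3 CPM (SD, n = 3), ratios of 1.15 and 1.18. The lid sum rose from 1251 ± 10.7 to 1518 ± 18.4 CPM and the base sum from 2249 ± 35.4 to 2629 ± 61.4 CPM. In each of these sums the lowest KO library lay above the highest control library. The sum of the 3 immunoproteasome genes was 127 ± 3.63 CPM in control and 123 ± 2.02 CPM in KO libraries, with overlap.

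**Figure D4:**
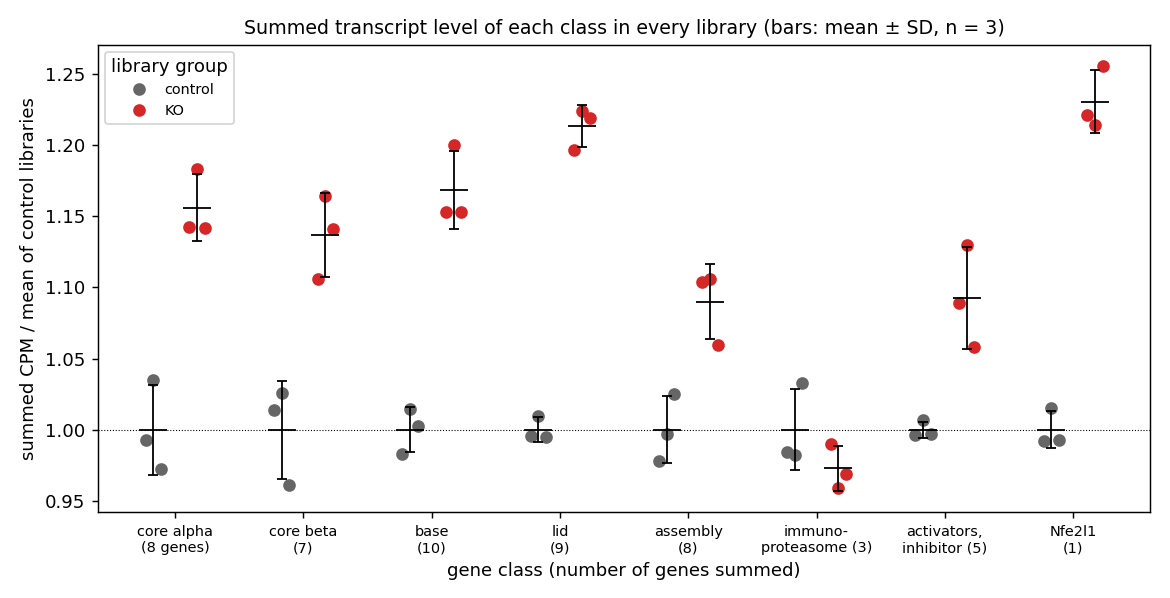
Summed CPM of each class in every library divided by the mean of the control libraries (vertical axis, not starting at 0), with control libraries in grey, KO libraries in red, and mean and SD as bars, n = 3. The KO libraries of the core, base and lid classes lie above their controls, and those of the immunoproteasome overlap with theirs.

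The subunits of the core, base and lid occur mostly in equal numbers in the assembled particle, but their transcripts did not. Per length, control levels ran from 25.2 RPKM (Psmd13) to 179 RPKM (Psmc1), with a median of 47.6 RPKM, and KO levels from 30.6 to 201 RPKM. Lengths are of all annotated exons of a gene merged, so a gene with long, rarely used exons has a level that is too low on this scale.

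Of 8 tested assembly factors, 3 rose, 2 fell and 3 did not pass. These shares, 37.5% raised and 25.0% lowered, lie near the 27.1% and 27.5% of all tested genes. Pomp, which brings beta subunits onto the alpha ring and matures with the new core, had 137, 141 and 145 CPM in control and 180, 170 and 163 CPM in KO libraries, a log2 fold change of 0.28 (edgeR adjusted p = 8.33e-07). Psmg1 and Psmg2 are the partners of a dimer that builds the alpha ring. Psmg1 fell by 0.20 (38.0 ± 1.12 to 33.1 ± 2.07 CPM, SD, n = 3, edgeR adjusted p = 0.0128, and 0.0661 without KO replicate 3), while Psmg2 had a log2 fold change of 0.13 with an interval of -0.04 to 0.31. The second dimer, of Psmg3 and Psmg4, had log2 fold changes of 0.09 (interval -0.18 to 0.37) and -0.10 (interval -0.32 to 0.12) at mean levels between 7.65 and 12.5 CPM.

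The chaperones of the base also split. Psmd5 had 72.6, 74.5 and 74.6 CPM in control and 84.0, 93.7 and 87.1 CPM in KO libraries, a log2 fold change of 0.26 (edgeR adjusted p = 3.49e-05). Psmd10, also known as gankyrin and as a binder of the retinoblastoma protein, had 64.6, 63.9 and 65.8 CPM in control and 56.6, 56.8 and 52.4 CPM in KO libraries, and fell by 0.23 (edgeR adjusted p = 4.62e-04). Their groups did not overlap in either case. Psmd9 rose by 0.15 (edgeR adjusted p = 0.0457), a call lost in 9 of 14 alternatives, including without control replicate 1 or 2 and without KO replicate 1 or 3 (edgeR adjusted p from 0.0544 to 0.174).

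Among the proteins that cap the core in place of the regulatory particle, the 2 partners of one complex went in opposite directions. Psme1 and Psme2 are the alpha and beta chains of the ring that interferon gamma induces, and they are neighbours on chromosome 14. Psme1 had 131, 131 and 128 CPM in control and 119, 128 and 104 CPM in KO libraries, and fell by 0.16 (SE 0.0504, edgeR adjusted p = 0.00881). KO replicate 2 lay just under the controls and KO replicate 3 far under them, and the value was -0.08 with that library left out (edgeR adjusted p = 0.174). Psme2 had 129, 131 and 130 CPM in control and 146, 145 and 136 CPM in KO libraries, and rose by 0.13 (edgeR adjusted p = 0.00929). The intervals of the 2 genes, -0.26 to -0.05 and 0.04 to 0.21, do not overlap.

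Psme3 encodes the nuclear relative of these chains, which promotes degradation without ubiquitin. It had 143, 145 and 145 CPM in control and 172, 194 and 181 CPM in KO libraries, a log2 fold change of 0.34 (edgeR adjusted p = 2.04e-08). Psme4, a large single-chain activator, had 99.6, 103 and 100 CPM in control and 116, 111 and 115 CPM in KO libraries, a log2 fold change of 0.18 (edgeR adjusted p = 8.81e-04). Psmf1, which inhibits the core in the test tube, had 29.3, 27.2 and 29.4 CPM in control and 29.6, 25.6 and 29.1 CPM in KO libraries. Its groups overlap, and the interval of its log2 fold change is -0.18 to 0.13 (edgeR adjusted p = 0.801).

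Nfe2l1 had 427, 437 and 427 CPM in control and 525, 522 and 540 CPM in KO libraries. The groups stood well apart, with a log2 fold change of 0.30 (standard error 0.0334, 95% interval 0.23 to 0.37, edgeR adjusted p = 1.23e-09). NRF1 is controlled largely after transcription, by retrotranslocation from the endoplasmic reticulum, cleavage and turnover, which these counts do not measure. Of 14 listed genes of that route, its turnover, its relative Nfe2l2 and its partners, 7 rose and 3 fell. Over all tested genes, 27.1% rose and 27.5% fell. The small Maf partners differed in direction: Mafk rose by 0.49 and Maff by 0.24, whereas Mafg fell by 0.13 (226 to 206 CPM, edgeR adjusted p = 0.00286). Nploc4, a cofactor of the segregase Vcp, rose by 0.30. Vcp itself rose by 0.10, and the protease Ddi2, which cleaves NRF1, fell by 0.13 (edgeR adjusted p = 0.044). Btrc, a substrate receptor for its turnover, fell by 0.37. Nfe2l2, which encodes NRF2, had 94.7 and 94.2 CPM, with a log2 fold change of -0.01 (edgeR adjusted p = 0.934).

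Of 15 listed proteasome-associated and shuttle genes in the table, 4 rose and 5 fell (median log2 fold change 0.01), which is near the share over all tested genes (27.1% raised and 27.5% lowered). Uchl5, the deubiquitinase that docks on Adrm1, rose by 0.32 (73.1 to 91.2 CPM), whereas the other deubiquitinase Usp14 had a log2 fold change of 0.07 (edgeR adjusted p = 0.187). Zfand2a and Zfand5, zinc finger proteins that bind the proteasome, fell by 0.46 and 0.32, and Midn, which delivers substrates without ubiquitin, fell by 0.31. Of 6 genes for ubiquitin and its activating enzymes, the polyubiquitin gene Ubb rose by 0.30 (749 to 923 CPM) and Uba6 fell by 0.33, while the main activating enzyme Uba1 had a log2 fold change of -0.04 (edgeR adjusted p = 0.322).

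The tested members are spread over 17 chromosomes. Chromosome 11 held the most, 9 tested members (Psmb3, Psmb6, Psmc5, Psmd3, Psmd11, Psmd12, Psme3, Psme4 and Nfe2l1), all of which rose (median log2 fold change 0.28). All 1014 tested genes of that chromosome had a median of 0.02. Chromosome 7 held 4 members that all rose, with a median of 0.37, where its 906 tested genes had a median of -0.04. Of the 13 members that share exon bases with another annotated gene, Psmb7 (with Nek6), Psmc3 (with Slc39a13), Psmd13 (with Sirt3) and Psmb9 (with Tap1) overlap an expressed gene on the opposite strand by more than 5% of their exon length, so their values are uncertain to that extent.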

How the data were processed

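The authors deposited raw read counts as whole numbers, with a column for each library. The submitters' processing notes name STAR 2.7.9a, featureCounts, R 4.1.1 and FastQC 0.11.9 and the builds hg38 and mm10. Not given in the sources used here: annotation release, strand setting and handling of multi-mapped reads, so genes with processed pseudogenes are uncertain. The counts were analysed with edgeR 4.0.16 in R 4.3.3: filterByExpr defaults (minimum count 10), TMM scaling, group as the only term, the quasi-likelihood F-test over all 12158 tested genes, and Benjamini-Hochberg adjustment with a threshold of 0.05. Standard errors (SE) are the log2 fold change over the root of F. Alternatives used DESeq2 1.42.0, limma-voom (limma 3.58.1), other scalings and filters, a replicate block, a minimum fold of 1.2 and each library left out. The test was also run on simulated data, but the settings and outcome are not reported here and no call rests on them. Nothing says that replicates were separate cultures, so p-values measure only how far these libraries spread, which may be technical; every pair of libraries differed by more than counting noise. Members, classes and lists were chosen with earlier results of these data known. Values per library are given for the active, immunoproteasome, activator and named single genes, for the smallest adjusted p of each class and for the largest rise and fall. Lengths and positions are from GENCODE M21 (mm10) and promoter windows from RefSeq (GRCm38.p6); the motifs were chosen after the data were seen. Of each companion list, the 4 genes of smallest adjusted p could be named; Tap1, Nlrc5, Vcp, Ddi2, Mafg, Nfe2l2 and Usp14 fall outside that rule and were chosen after their values were seen. The values of 2 listed genes, which stay in the counts of their lists, and 1 further motif are not reported here. Ecpas was matched through its older symbol AI314180, and 1 listed gene, Paaf1, had no match.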

Additional observations from a re-analysis of the deposited data

How the results depend on the processing

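Of 41 raised and 5 lowered members, 6 and 0 passed a test against a minimum fold change of 1.2 (Psmb3, Psmc4, Psmc5, Psmd7, Psmd8 and Psmd13; edgeR, 1 lowered member at an unadjusted p below 0.05), as the rises are mostly smaller than that. With 1 library left out, 35 to 38 members rose and 2 to 5 fell, the 2 being Psmb9 and Psmd10 without KO replicate 3. All 33 core, base and lid genes had a positive log2 fold change in all 14 alternatives, and 26 of them passed in each of the 13 without a minimum fold. The exceptions were Psma5, Psma6, Psmb2, Psmb5, Psmb6, Psmb7 and Psmd4. Upper quartile scaling gave 37 raised and 5 lowered members. It moved the median of all tested genes to -0.03. Psmf1, which was not called, ran from -0.063 to 0.039 with 1 library left out and changed sign without KO replicate 2 (edgeR adjusted p = 0.708). The Psmb9 share of its pair differed by -2.81 percentage points in counts (-3.40 to -2.32 with 1 library left out) and -1.57 per kilobase of exon. The Psmb8 share differed by -5.88 points (-7.95 to -3.65) and the Psmb10 share by 0.0240 points (-0.684 to 1.21), with a change of sign for Psmb10 on leaving out control replicate 1 (-0.450), control replicate 2 (-0.684) or KO replicate 1 (-0.421). Deviations of same-numbered libraries had correlations of -0.0458, 0.00813 and -0.0652, against -0.0293 to 0.0708 for libraries of different number. With 3 libraries per group these values cannot settle whether the numbers pair the libraries, which the labels do not say. The replicate block gave 40 raised and 5 lowered members, losing Psmd9.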
